A study of Mus musculus with 5 samples.

Results

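The cyclin-dependent kinase (CDK) inhibitors and the Arf-p53-Rb checkpoint were examined in mouse embryonic fibroblasts (MEFs), as the 10 genes Cdkn2a, Cdkn2b, Cdkn2c, Cdkn2d, Cdkn1a, Cdkn1b, Cdkn1c, Trp53, Mdm2 and Rb1. They were taken by gene symbol from 21630 genes measured on Affymetrix arrays. All 10 were found, 9 of them with 1 probe set and Cdkn1b with 2. The data comprised 3 arrays labelled MDR2-/- (replicates 1, 2 and 3) and 2 labelled MDR2+/+ (replicates 2 and 3). Both groups were MEFs from littermate embryos, carried by the 3T3 serial passaging routine to passage 40, without any treatment in the labels. Mdr2, now named Abcb4, encodes a phosphatidylcholine translocator of liver cells. The labels do not say whether the replicates were separate embryos, lines or cultures, so the p-values cover the variation among these 5 arrays alone, part or all of which could be technical. Lines grown out of such passaging can each be the offspring of few cells.

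In this checkpoint, the INK4 proteins (p16, p15, p18 and p19, from Cdkn2a to Cdkn2d) bind and inhibit CDK4 and CDK6, and the CIP/KIP proteins (p21, p27 and p57, from Cdkn1a to Cdkn1c) inhibit cyclin-CDK complexes more broadly. Active CDKs phosphorylate Rb, which otherwise holds E2F transcription factors in check. Cdkn2a also encodes, in another reading frame, p19ARF, which blocks Mdm2, the ubiquitin ligase that degrades p53, and p53 in turn activates Cdkn1a and Mdm2. Serially passaged mouse fibroblasts are known to accumulate p16 and p19ARF, and lines that escape senescence commonly have lost ARF or p53 function.

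Abcb4 had log2 signals of 6.0, 4.63 and 5.74 on the arrays labelled MDR2-/-, against 4.05 and 3.95 on those labelled MDR2+/+. Its signal thus went against the label, close to background, and directions below are given by label. Xist, the RNA of the inactive X chromosome, was at 7.32 to 7.68 on the arrays labelled MDR2-/- and at 2.98 and 3.17 on those labelled MDR2+/+. The Y-linked Ddx3y was at 2.26 to 2.61 on the arrays labelled MDR2-/- and at 6.96 and 6.65 on those labelled MDR2+/+, so genotype label and sex-linked expression cannot be told apart in any difference below. Background was read from 45 antigenomic control probe sets, designed without a match in the genome, whose 95th percentile lay between 5.71 and 6.08. Of 10 fibroblast markers 8 were above it on every array. On the arrays labelled MDR2-/-, 2 of the 10 were higher and 6 lower without overlap, beside 10.6% and 14.4% of all genes. The summed log2 signal of the 10 markers was 89.1 to 93.1 on the arrays labelled MDR2-/- and 91.9 and 90.2 on those labelled MDR2+/+. Thy1, a fibroblast surface marker, was at 10.55, 9.70 and 10.16 on the arrays labelled MDR2-/-, against 5.6 and 5.22 on those labelled MDR2+/+ (limma adjusted p = 0.0523). The matrix genes Dcn and Col3a1 went the other way. Dcn was at 10.25, 7.61 and 10.44 on the arrays labelled MDR2-/-, against 11.45 and 11.05 on those labelled MDR2+/+, with replicate 2 labelled MDR2-/- far below the rest, and Col3a1 had a log2 fold change of -1.01 (limma adjusted p = 0.139). The part of these markers in the results was not tested. None of the 7 epithelial, 5 endothelial, 5 muscle or 4 pluripotency markers was above background on any array, nor were 5 of 6 macrophage and blood and 4 of 5 neural markers.

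Of the 10 checkpoint genes, 4 were higher on every array labelled MDR2-/- than on both labelled MDR2+/+ (Cdkn2a, Cdkn2b, Cdkn2c and Cdkn1c). Another 4 were lower on every such array (Cdkn1a, Mdm2, Rb1 and Cdkn1b), and the groups overlapped for Cdkn2d and Trp53. Among all genes 10.6% were higher and 14.4% lower without overlap, 25.0% in all. These and the later shares of all genes include 13909 genes above background on no array, against 1 of the 10. They also include 1589 genes with equal values on all 5 arrays, which can only overlap. Shares without overlap among expressed genes were not computed. Among the checkpoint genes 6 differed at least 2-fold without overlap, against 3.92% of all genes. None of the 10 passed an adjusted p of 0.05 in limma, a threshold passed by 0.301% of all genes. At an unadjusted p under 0.05 there were 8 of the 10 (4 higher and 4 lower), against 13.6% of all genes (5.36% higher and 8.29% lower). The median log2 fold change over the 10 was 0.02, beside 0.00 over all genes.

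**Figure D1:**
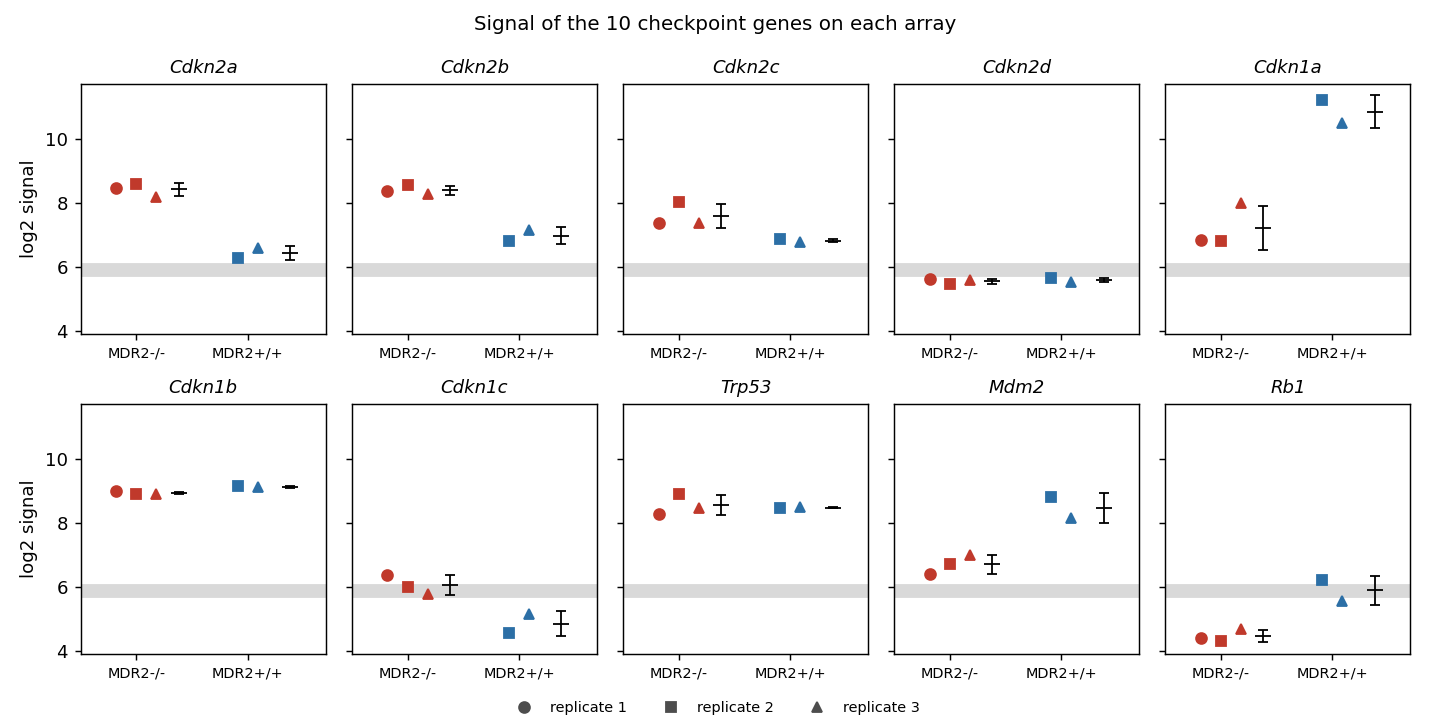
Log2 signal (y axis) of each checkpoint gene on each array, with the 3 arrays labelled MDR2-/- in red and the 2 labelled MDR2+/+ in blue. Black marks give group mean ± SD, and the grey band spans the 95th percentiles of background probe sets on the arrays (5.71 to 6.08). The groups are apart for 8 genes and overlap for Cdkn2d and Trp53.

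Of the 4 members that lay higher, 3 were the INK4 genes of chromosome 4. Cdkn2a, which encodes p16 and p19ARF, had log2 signals of 8.48, 8.59 and 8.20 on replicates 1, 2 and 3 labelled MDR2-/-, against 6.28 and 6.59 on replicates 2 and 3 labelled MDR2+/+. The groups were 1.61 apart at their nearest arrays, more than the range within either (0.39 and 0.31). Arrays labelled MDR2-/- averaged 8.42 ± 0.20 (SD, n = 3) and those labelled MDR2+/+ 6.43 ± 0.22 (SD, n = 2). That was a 3.97-fold difference (log2 fold change 1.99 ± 0.17, SE). It missed the threshold (limma adjusted p = 0.0675), and 0.777% of all genes had a smaller p. It passed when the values were quantile normalized (adjusted p = 0.0154), when array medians were subtracted (0.0304), when dim genes were left out (0.0296) and when the genes identical across arrays were dropped (0.0205). Over its 15 alternatives the adjusted p ran from 0.0154 to 0.427 and the log2 fold change from 1.84 to 2.14. Probe set 10514340 is annotated to chromosome 4, 88920377 to 88940536, minus strand (build NCBIM37). It gives 1 value for the gene, so the transcripts of p16 and p19ARF were not measured apart.

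Cdkn2b, the neighbouring gene for the CDK4 and CDK6 inhibitor p15, followed the same order of arrays. Its log2 signals were 8.36, 8.56 and 8.27 on the arrays labelled MDR2-/-, against 6.80 and 7.17 on those labelled MDR2+/+. The lowest array labelled MDR2-/- stood 1.10 above the highest labelled MDR2+/+. The log2 fold change was 1.41 ± 0.16 (SE), or 2.66-fold, and missed the threshold (limma adjusted p = 0.104). It passed on quantile normalization (adjusted p = 0.0271), without dim genes (0.0492) and without genes of equal values (0.0396), within a range of 0.0271 to 0.471 over its alternatives. Its probe set, 10514347, is annotated to chromosome 4, 88952198 to 88956863, minus strand (NCBIM37).

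Cdkn2a has 2 annotated starts, the upstream one before the first exon of p19ARF and the downstream one before that of p16, and Cdkn2b has its own. The 250 bases before each start are shown because these adjacent genes lay higher together. They are RefSeq sequences of build GRCm38.p6, written along the minus strand. Capitals here and in the later sequences mark, on either strand, the GC box GGGCGG, the CCAAT box and the p53 decamer, the unit that occurs in pairs in p53 sites.
Cdkn2a, p19ARF start, chr4:89294620-89294869: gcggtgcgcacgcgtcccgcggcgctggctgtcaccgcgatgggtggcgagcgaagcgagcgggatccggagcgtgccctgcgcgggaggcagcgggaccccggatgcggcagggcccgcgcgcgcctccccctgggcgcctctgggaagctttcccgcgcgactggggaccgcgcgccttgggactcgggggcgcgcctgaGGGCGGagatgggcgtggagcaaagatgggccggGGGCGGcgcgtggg
Cdkn2a, p16 start, chr4:89282193-89282442: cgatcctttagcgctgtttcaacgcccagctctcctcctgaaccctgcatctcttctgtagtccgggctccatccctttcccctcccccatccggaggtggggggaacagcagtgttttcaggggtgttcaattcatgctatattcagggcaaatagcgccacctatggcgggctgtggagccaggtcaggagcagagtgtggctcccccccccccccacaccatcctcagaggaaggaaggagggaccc
Cdkn2b start, chr4:89311033-89311282: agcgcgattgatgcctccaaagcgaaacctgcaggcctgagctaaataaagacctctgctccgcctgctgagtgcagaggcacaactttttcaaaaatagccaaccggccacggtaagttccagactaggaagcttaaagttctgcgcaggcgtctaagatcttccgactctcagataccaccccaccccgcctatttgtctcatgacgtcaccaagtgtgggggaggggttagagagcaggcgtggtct

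The 3 windows differ in composition. The p19ARF window had 78.4% G and C and 40 CpG pairs, with GC boxes that begin 48 and 14 bases before the start. The p16 window had 60.0% G and C and 7 CpG pairs, and the Cdkn2b window 53.6% and 12, and neither held a GC box. Over all 32851 starts of the table the medians were 52.4% and 6, and 32.7% of the windows held a GC box. No window of a member held the E2F site (TTTCGCGC or TTTGGCGC, either strand), which 0.654% of all windows held. Sequences of starts were at hand for 8 of the 10 genes.

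The region around Cdkn2a was compared next, since position had no part in the choice of genes. Within 500 kb lay 12 other measured genes, of which 2 were higher without overlap, Cdkn2b and Mtap, and 0 lower. Over all genes 10.6% were higher and 14.4% lower without overlap, and Cdkn2b is itself a member. Mtap, which encodes the methionine salvage enzyme methylthioadenosine phosphorylase, had log2 signals of 7.11, 7.46 and 7.11 on the arrays labelled MDR2-/-, against 6.61 and 6.76 on those labelled MDR2+/+. Its log2 fold change was 0.54 (limma adjusted p = 0.265), smaller than those of Cdkn2a and Cdkn2b. The other 10 were the interferon genes Ifna1, Ifna4, Ifna5, Ifna6, Ifna7, Ifna11 and Ifne, the microRNA gene Mir31, 4930553M12Rik and Dmrta1. All 10 were at or below background on every array, with log2 fold changes of -0.20 to 0.16, so the arrays show no level there. The 1257 genes of chromosome 4 had a median log2 fold change of 0.02.

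**Figure D2:**
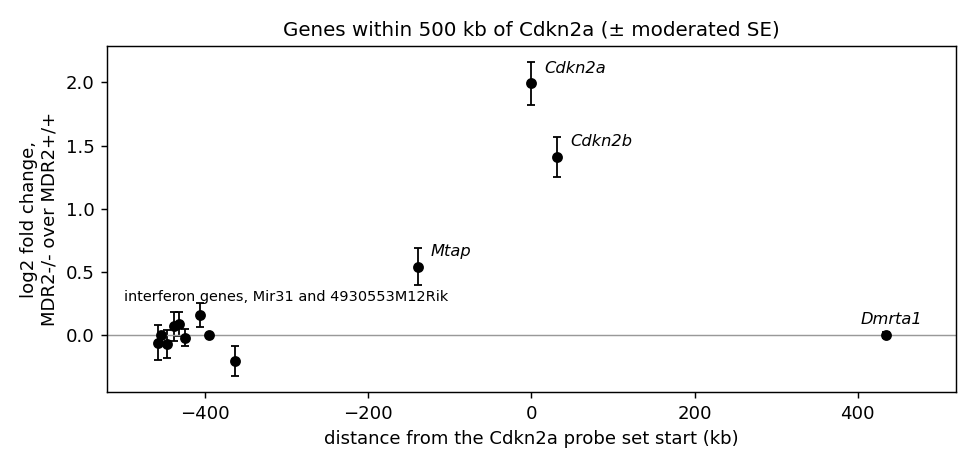
Log2 fold change of arrays labelled MDR2-/- over those labelled MDR2+/+ (y axis, ± moderated SE) against distance in kb from the annotated start of the Cdkn2a probe set (x axis). Points are genes. Cdkn2a (1.99), Cdkn2b (1.41) and Mtap (0.54) lie above 0, and the 10 genes at background lie near it.

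Cdkn2c and Cdkn2d, for the inhibitors p18 and p19 (INK4d), showed less. Cdkn2c had log2 signals of 7.38, 8.03 and 7.38 on the arrays labelled MDR2-/-, against 6.87 and 6.79 on those labelled MDR2+/+. Replicate 2 labelled MDR2-/- stood above the others, and replicates 1 and 3 held the same deposited value. The log2 fold change was 0.77 ± 0.26 (SE; limma adjusted p = 0.350). Cdkn2c lies on chromosome 4, 109333481 to 109338280 (NCBIM37), well away from Cdkn2a. Cdkn2d had 5.61, 5.46 and 5.59 on the arrays labelled MDR2-/-, against 5.65 and 5.54 on those labelled MDR2+/+. These groups overlapped, every value lay at or below background, and its log2 fold change was -0.04 ± 0.07 (SE; limma adjusted p = 0.774).

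Among the CIP/KIP inhibitors, Cdkn1a had the largest difference of all 10 genes. Its log2 signals were 6.86, 6.81 and 8.0 on the arrays labelled MDR2-/-, against 11.22 and 10.48 on those labelled MDR2+/+. Replicate 3 labelled MDR2-/- was the highest of its group, still 2.49 below the lower array labelled MDR2+/+. Arrays labelled MDR2-/- averaged 7.22 ± 0.67 (SD, n = 3) and those labelled MDR2+/+ 10.85 ± 0.52 (SD, n = 2), and p21 message was 12.4-fold lower (log2 fold change -3.63 ± 0.52, SE). Only 0.203% of genes had a larger absolute difference, yet the spread within groups left it above the threshold (limma adjusted p = 0.132, and 0.0527 to 0.507 over its alternatives). Its log2 fold change ran from -4.02 to -3.26 over these. Probe set 10443463 is annotated to chromosome 17, 29230720 to 29237667, plus strand (NCBIM37).

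Mdm2, the other member that p53 is known to activate, was also lower. Its log2 signals were 6.42, 6.73 and 7.01 on the arrays labelled MDR2-/-, against 8.82 and 8.15 on those labelled MDR2+/+. All arrays labelled MDR2-/- were below both others, by 1.14 at the nearest, with replicate 3 again the highest of its group. The difference was 3.39-fold (log2 fold change -1.76 ± 0.30, SE) and missed the threshold (limma adjusted p = 0.164). Over its alternatives the log2 fold change ran from -2.10 to -1.43.

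The windows before the starts of Cdkn1a and Mdm2 are shown because p53 acts on both genes. They need not hold the sites through which it acts, and the rest of each gene was not searched. Cdkn1a has 2 annotated starts on the plus strand and Mdm2 has 1 on the minus strand (RefSeq, GRCm38.p6). In the first Cdkn1a window the capitals also cover a 20-base p53 site.
Cdkn1a, upstream start, chr17:29090729-29090978: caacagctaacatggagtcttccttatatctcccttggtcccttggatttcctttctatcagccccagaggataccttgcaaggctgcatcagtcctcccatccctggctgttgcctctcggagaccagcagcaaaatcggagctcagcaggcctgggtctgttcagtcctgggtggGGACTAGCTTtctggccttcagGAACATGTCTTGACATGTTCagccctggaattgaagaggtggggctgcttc
Cdkn1a, downstream start, chr17:29093519-29093768: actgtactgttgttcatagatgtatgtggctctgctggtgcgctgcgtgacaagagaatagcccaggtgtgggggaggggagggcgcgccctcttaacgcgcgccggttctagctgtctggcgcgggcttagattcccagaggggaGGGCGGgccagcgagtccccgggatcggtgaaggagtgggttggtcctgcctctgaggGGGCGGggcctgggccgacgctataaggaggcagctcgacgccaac
Mdm2 start, chr10:117710759-117711008: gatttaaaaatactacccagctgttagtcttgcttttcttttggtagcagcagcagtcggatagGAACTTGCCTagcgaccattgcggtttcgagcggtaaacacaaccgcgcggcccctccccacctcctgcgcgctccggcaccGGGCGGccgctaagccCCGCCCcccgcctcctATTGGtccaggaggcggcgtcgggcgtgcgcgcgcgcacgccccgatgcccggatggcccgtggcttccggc

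The upstream Cdkn1a window held 2 exact p53 decamers, 73 and 51 bases before the start with 12 bases between them. A pair of decamers up to 13 bases apart was found in 21 of 32851 windows (0.0639%), and a single decamer in 7.13%. The decamer nearer the start opens the run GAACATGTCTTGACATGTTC, at chr17:29090928-29090947, in which 2 decamers adjoin with 1 mismatch. That 20-base form, searched for once the exact matches had been seen, was in 25 windows (0.0761%), of 25 genes, and Cdkn1a was the 1 member among them. The downstream Cdkn1a window held 2 GC boxes and no decamer. The Mdm2 window held 2 GC boxes, a CCAAT box and 1 decamer, and a CCAAT box was in 33.8% of all windows. The windows of Cdkn2d and Trp53, whose groups overlapped, each held 1 decamer as well. A match of letters is a description and does not show binding.

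Cdkn1b, for p27, differed little but in the same direction on both of its probe sets. The brighter, 10542317, annotated to chromosome 6, 134875352 to 134875513 (NCBIM37), had 8.99, 8.93 and 8.91 on the arrays labelled MDR2-/-, against 9.16 and 9.11 on those labelled MDR2+/+. The other, 10542310, at 134870435 to 134874331, had 7.81, 7.56 and 7.62 on the arrays labelled MDR2-/-, against 8.13 and 8.09 on those labelled MDR2+/+. Neither overlapped between groups, and all 5 arrays were above background. In a limma fit over all 25004 probe sets with a symbol, the brighter differed by -0.19 ± 0.04 on the log2 scale (SE; adjusted p = 0.187). The other had -0.44 ± 0.09 (SE; adjusted p = 0.212).

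Cdkn1c, for p57, an inhibitor expressed from the maternal allele of an imprinted cluster, lay on the other side. Its log2 signals were 6.40, 6.01 and 5.79 on the arrays labelled MDR2-/-, against 4.58 and 5.15 on those labelled MDR2+/+. Of the arrays labelled MDR2-/- 2 were above background, and both labelled MDR2+/+ were below it. The log2 fold change was 1.20 ± 0.28 (SE; limma adjusted p = 0.228), and differences from a group at background can understate the change. Within 500 kb of it, 1 of 20 genes was higher without overlap (Tnfrsf23) and 3 were lower (Cd81, Cars and Osbpl5, with log2 fold changes of -0.66, -0.34 and -0.06), genes named here after their values were seen, beside 10.6% and 14.4% of all genes. None of the 20 passed limma's test.

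Trp53 message did not separate the groups. It was at 8.30, 8.90 and 8.48 on the arrays labelled MDR2-/-, against 8.48 and 8.49 on those labelled MDR2+/+. Replicate 2 labelled MDR2-/- was the highest of all 5 arrays and replicate 1 the lowest, and replicate 3 held the same deposited value as replicate 2 labelled MDR2+/+. The log2 fold change was 0.08 ± 0.21 (SE; limma adjusted p = 0.886), and it was -0.10 without MDR2-/- replicate 2. Arrays of this kind measure message and say nothing of the sequence or amount of p53 protein. Of 56 genes within 500 kb of Trp53, 1 was higher and 16 lower without overlap, beside 10.6% and 14.4% of all genes. Their median log2 fold change was -0.09, and none passed in limma.

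Rb1, which encodes the pocket protein that restrains E2F factors, was lower. Its log2 signals were 4.43, 4.31 and 4.69 on the arrays labelled MDR2-/-, against 6.21 and 5.59 on those labelled MDR2+/+. The groups were 0.90 apart, but 1 array alone, replicate 2 labelled MDR2+/+, was above background. The log2 fold change was -1.42 ± 0.25 (SE; limma adjusted p = 0.169), and it stayed between -1.74 and -1.11 over the alternatives. Among 7 genes within 500 kb on chromosome 14, 0 were higher and 3 lower without overlap, beside 10.6% and 14.4% of all genes. Those were Itm2b, Rcbtb2 and Sucla2 (log2 fold changes of -0.24, -0.43 and -0.54, named after their values were seen), none past limma's test, and the chromosome's median was 0.00. Of the 184 genes near any member, other members left out, 9.78% were higher and 13.04% lower without overlap, and limma called 0 of them (19 at an unadjusted p under 0.05).

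The array of a group that lay nearest to the other group was often the same one. Of the arrays labelled MDR2-/-, replicate 3 lay nearest to the MDR2+/+ mean for 6 of the 8 genes without overlap (Cdkn2a, Cdkn2b, Cdkn1a, Cdkn1c, Mdm2 and Rb1). For Cdkn1b it was replicate 1, and for Cdkn2c replicates 1 and 3 were tied. Over all 5408 genes without overlap, replicate 3 alone was the nearest for 20.6%, replicate 1 for 22.4% and replicate 2 for 45.5%, with a tie for 11.5%. The order of replicates 1 and 2 was not constant, since replicate 1 was the farthest for Cdkn1c and Mdm2 and replicate 2 for Cdkn2a, Cdkn2b, Cdkn1a and Rb1. Replicate 3 labelled MDR2+/+ lay nearer to the MDR2-/- mean than replicate 2 for 7 of the 8 genes, Cdkn2c being the exception, and for 50.6% of the 5408. On replicate 3 labelled MDR2-/-, Cdkn1a was 2.86 below the MDR2+/+ mean, against 4.0 and 4.04 below on replicates 1 and 2. These are descriptions of 5 arrays with no test.

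**Figure D3:**
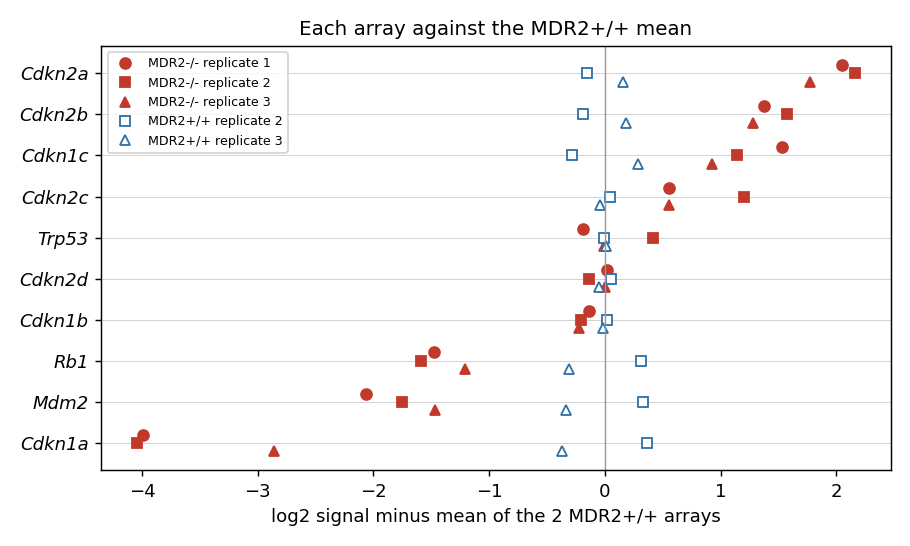
Log2 signal minus the mean of the 2 arrays labelled MDR2+/+ (x axis) for each checkpoint gene (y axis), with filled red marks for arrays labelled MDR2-/- and open blue marks for those labelled MDR2+/+. Triangles, replicate 3 of each group, lie between the other marks for Cdkn2a, Cdkn2b, Cdkn1c, Rb1, Mdm2 and Cdkn1a.

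Targets of p53 other than Cdkn1a and Mdm2 were mostly lower on the arrays labelled MDR2-/-. Of 35, 3 fell (Perp, Eda2r and Ercc5), 0 rose and 32 did not pass limma's test, which 0.301% of all genes passed. With 1 array left out, 0 to 1 genes over all the lists other than the checkpoint genes passed. Without overlap 20 were lower and 3 higher, 57.1% and 8.57% of the list, beside 14.4% and 10.6% of all genes. In limma 18 were lower and 0 higher at an unadjusted p under 0.05, against 8.29% and 5.36% of all genes. The median log2 fold change was -0.91, beside 0.00 over all genes, and the list's median difference from the MDR2+/+ mean was -1.03, -0.63 and -0.77 on replicates 1, 2 and 3 labelled MDR2-/-. Perp, an apoptosis effector gene, was at 5.69, 5.67 and 5.98 on the arrays labelled MDR2-/-, against 8.64 and 8.58 on those labelled MDR2+/+ (log2 fold change -2.83 ± 0.12, SE; limma adjusted p = 0.0276). Ercc5, a DNA repair nuclease gene, fell by 1.24 on the log2 scale (limma adjusted p = 0.0493). Perp and Ercc5 lay below background on every array labelled MDR2-/- and above it on both labelled MDR2+/+. Eda2r, a death receptor gene, fell by 2.76 (limma adjusted p = 0.0267), though all its values lay below background. Trp53inp1, a p53-induced stress protein gene, differed by -2.20 ± 0.41 on the log2 scale (SE; limma adjusted p = 0.180). Ccng1, for cyclin G1, was the 1 listed gene whose window before the start also held the 20-base p53 site. It was at 8.04, 8.03 and 7.79 on the arrays labelled MDR2-/-, against 9.77 and 9.99 on those labelled MDR2+/+ (log2 fold change -1.93; limma adjusted p = 0.0522). It was named for the site.

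The other lists are to be read against all genes, of which 10.6% were higher and 14.4% lower without overlap and 13.6% had an unadjusted p under 0.05. Among 22 regulators and relatives of p53, none passed in limma, and 5 had an unadjusted p under 0.05, with 5 (22.7%) higher and 4 (18.2%) lower without overlap and a median of 0.06. Mdm4, an Mdm2 relative that restrains p53, went with Mdm2. It was at 6.98, 6.75 and 6.67 on the arrays labelled MDR2-/-, against 8.57 and 7.92 on those labelled MDR2+/+ (log2 fold change -1.44 ± 0.25, SE; limma adjusted p = 0.163). Usp7, a deubiquitinase of Mdm2 and p53, differed by 0.76 ± 0.10 on the log2 scale (SE), and Hipk2, a p53 kinase, by 0.74 ± 0.25.

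Downstream of Rb, E2F target genes gave no separation of the arrays as a list. None of 31 passed in limma, 1 had an unadjusted p under 0.05, 9 (29.0%) were higher and 0 lower without overlap, and the median log2 fold change was 0.25. The S-phase cyclin gene Ccna2 was at 6.34, 7.87 and 7.48 on the arrays labelled MDR2-/-, against 5.91 and 5.59 on those labelled MDR2+/+. The replication helicase genes Mcm4 and Mcm7 had log2 fold changes of 1.44 ± 0.33 and 1.01 ± 0.41 (SE). The list's median difference from the MDR2+/+ mean was 0.03 on replicate 1 labelled MDR2-/-, 0.46 on replicate 2 and 0.26 on replicate 3, against 0.06 and -0.06 on replicates 2 and 3 labelled MDR2+/+. Replicate 1 labelled MDR2-/- thus lay within the range of the arrays labelled MDR2+/+, and 14 of the genes were above background on no array. Of 17 pocket protein, E2F and DREAM complex genes 0 passed in limma, and 2 had an unadjusted p under 0.05. Without overlap 3 (17.6%) were higher and 2 (11.8%) lower, with a median of 0.05. The largest of these were E2f5 (0.57), Tfdp2 (0.31) and E2f3 (-0.30).

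The list of G1 cyclins and kinases took in genes of the CDK-activating kinase (Cdk7, Ccnh and Mnat1) and the phosphatase gene Cdc25a. Its differences ran from -0.64 to 0.61 on the log2 scale. Of 12 G1 cyclin and kinase genes 0 passed in limma, and 2 had an unadjusted p under 0.05, with 2 (16.7%) higher and 2 (16.7%) lower without overlap and a median of 0.04. Cdk6 was at 6.96, 7.29 and 7.08 on the arrays labelled MDR2-/-, against 6.57 and 6.73 on those labelled MDR2+/+. Ccnd1, for cyclin D1, had a log2 fold change of 0.61 ± 0.29 and Cdk7, of the CDK-activating kinase, of -0.64 ± 0.21 (SE). Cdk7 and Ccnh (-0.44) were the 2 lower without overlap. Another list held 13 genes for the turnover of p21 and p27, with the transcription factor genes Foxo1 and Foxo3 among them. Of these 13, 0 passed in limma, 2 had an unadjusted p under 0.05, and 3 (23.1%) were higher and 2 (15.4%) lower without overlap. The higher were Cks1b, Foxo1 (log2 fold change 0.20) and Foxo3 (0.24). Cks1b, a cofactor in p27 degradation, was at 8.88, 9.25 and 9.11 on the arrays labelled MDR2-/-, against 8.08 and 8.002 on those labelled MDR2+/+ (log2 fold change 1.04 ± 0.13, SE; limma adjusted p = 0.112). Cul4a and Rbx1, ubiquitin ligase subunits, had -0.62 and -0.26.

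Of 17 Polycomb and other repressors of the Ink4 locus 0 passed in limma, and 3 had an unadjusted p under 0.05, with 1 (5.88%) higher and 6 (35.3%) lower without overlap and a median of -0.02. Rnf2 and Suz12, subunits of the Polycomb complexes, had log2 fold changes of -0.63 ± 0.17 and -0.52 ± 0.16 (SE), and the T-box repressor gene Tbx3 of 0.68 ± 0.35 (SE). Of 13 activators of Cdkn2a and Cdkn2b 0 passed and 2 had an unadjusted p under 0.05, with 4 (30.8%) higher and 2 (15.4%) lower without overlap. TGF-beta signalling is known to induce Cdkn2b. Its ligand gene Tgfb2 differed by 0.89 ± 0.12 on the log2 scale (SE; limma adjusted p = 0.125), the receptor gene Tgfbr2 by 0.65 and the transducer gene Smad2 by -0.66.

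**Figure D4:**
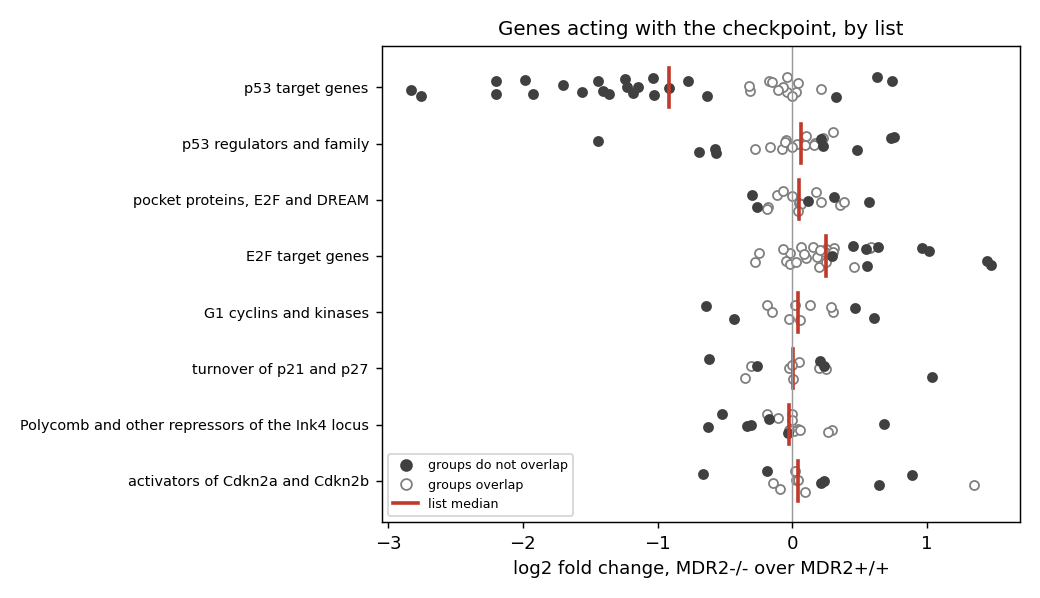
Log2 fold change of arrays labelled MDR2-/- over those labelled MDR2+/+ (x axis) for each gene of 8 lists (y axis). Filled points are genes whose groups do not overlap, open points those that overlap, and red bars the list medians (-0.91 for p53 targets, 0.25 for E2F targets and between -0.02 and 0.06 for the others).

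The genes most like Cdkn1a and Cdkn2a were found by the Euclidean distance between array values, each gene centred on its mean over the 5 arrays. Nearest to Cdkn1a were Mgll, a monoacylglycerol lipase gene, at a distance of 0.60, Ankrd1 (0.93) and the collagen gene Col8a1 (0.97). Mgll was at 5.23, 4.69 and 5.78 on the arrays labelled MDR2-/-, against 9.14 and 8.92 on those labelled MDR2+/+. Nearest to Cdkn2a were Ldhb, a lactate dehydrogenase gene (0.11), Clmp (0.20) and Erlin1 (0.24). The Ldhb probe set is annotated to chromosome 19 and may read a copy of the gene. It was at 8.74, 8.93 and 8.49 on the arrays labelled MDR2-/-, against 6.67 and 6.86 on those labelled MDR2+/+. With 5 arrays in groups of 3 and 2, such likeness rests mainly on the difference between the groups.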

How the data were processed

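The authors deposited 1 log2 signal per probe set and array, made with Affymetrix Expression Console per the submitters' processing notes. The sources used here give neither its version nor its normalization. A second deposited table held the same log2 values (0 differences).

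Of 35556 probe sets, 7115 controls were left out. Symbols were updated through RefSeq names (GRCm38.p6), and the brightest probe set stood for each of 21630 genes. Coordinates are taken as NCBIM37, which 2759 of 2955 rows stating that build overlap. No detection call was used, and precision is limited by having 5 arrays.

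The arrays of both labels entered 1 limma fit (version 3.58.1, R 4.3.3) without a block and with 3 residual degrees of freedom. P-values were adjusted over all genes by Benjamini-Hochberg, with a threshold of 0.05. Many probe sets hold equal values on several arrays, and 1589 genes on all 5. Errors of fold changes are moderated standard errors. Members and lists were chosen with earlier results of these data known. Named genes were all members, genes of each list past the threshold, the 3 largest differences without overlap per list, genes within 500 kb of Cdkn2a and Cdkn2b, and the 3 nearest genes to Cdkn1a and Cdkn2a. The alternatives were other normalizations, filters, prior variances, array weights, a replicate block and leaving out each array. Promoter sequences come from RefSeq. They were read from the 250 bases before each start, with Python 3.11.15.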

Additional observations from a re-analysis of the deposited data

How the results depend on the processing

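Of the checkpoint genes 0 passed limma's adjusted test as reported (8 at an unadjusted p under 0.05). The number was 2 on quantile normalization, without dim genes and without genes of equal values (Cdkn2a and Cdkn2b each time), and 1 with array medians subtracted (Cdkn2a). It was 0 whichever array was left out. Over all genes the count was 65 as reported. It was 363 on quantile normalization, 250 with array medians subtracted, 270 without dim genes, 359 without genes of equal values and 107 with array weights. Among the genes of the other lists it was 3 as reported, and under those settings, in the same order, 10, 7, 8, 9 and 5. For these lists it was 2 with a trended prior variance and 2 with a robust one. The replicate number as a block gave 0 calls over all genes (2319 at an unadjusted p under 0.05), 0 among the lists (46) and 0 among the checkpoint genes (2, against 8 as reported). That fit has fewer residual degrees of freedom, and MDR2-/- replicate 1 has no same-numbered partner in it. Its lack of calls could thus come from the design alone. The highest adjusted p of Cdkn2a, Cdkn2b and Cdkn1a over the alternatives came from this limma fit. The numbers pair nothing in the labels, and the deviations of same-numbered arrays from their group means correlated at -0.17 and -0.14 across genes. Leaving out 1 array gave 0 to 335 calls over all genes and 0 to 1 among the lists. The count over all genes was 0 without MDR2-/- replicate 1 (2297 at an unadjusted p under 0.05), 2 without replicate 2 and 0 without replicate 3 (2196), and 189 and 335 without MDR2+/+ replicates 2 and 3. The cause of these changes was not tested. With array medians subtracted, 106 genes were higher and 144 lower, against 33 and 32 as reported. The direction held for 8 of the checkpoint genes under every alternative. Cdkn2d, near 0, was 0.0079 on quantile normalization and -0.090 to 0.011 with 1 array left out, positive without MDR2-/- replicate 2 (0.0083) and MDR2+/+ replicate 2. Trp53 was -0.10 to 0.21 with 1 array left out, negative without MDR2-/- replicate 2. Signals near background limit Cdkn2d, Rb1 and Cdkn1c.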

Other observations

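The pair of p53 decamers seen before the upstream start of Cdkn1a occurred in windows of 18 genes, 8 of them measured on the arrays. Of these 8, 5 were lower on the arrays labelled MDR2-/- without overlap, 0 higher, and 3 overlapped, beside 14.4% and 10.6% of all genes. None passed limma's adjusted test and 4 had an unadjusted p under 0.05. Cdkn1a, whose sites prompted the search, is 1 of the 5. None of the 27 listed p53 targets with a start in the table held such a pair in the windows before their starts. The rest of each gene was not searched, so sites elsewhere in these targets would have been missed. Of all 35 measured targets, with or without a start in the table, 20 were lower without overlap. Of the 8 measured genes with the pair, the lower ones besides Cdkn1a were Itm2a (log2 fold change -0.62), Dnajc7 (-0.56), Pard3 (-0.43) and Ifitm2 (-0.33). These genes were named after their values were seen, and the count is a description with no test.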
